A study of Mus with 2 samples.

Results

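In all, 10 genes of the MHC class I antigen presentation pathway were followed through the deposited tables of a single-cell study of the mouse distal ileum. They were chosen by name: the heavy chains H2-K1, H2-D1 and H2-T23, the light chain B2m, the peptide transporter genes Tap1 and Tap2, the loading factor Tapbp, the immunoproteasome genes Psmb8 and Psmb9, and the regulator Nlrc5. Of these 10 genes, 9 had a row in at least 1 of the 5 cell type sheets, which together list 8990 genes, and Nlrc5 is not analysed here. Tuft cells had 9 of the members, enterocytes and goblet cells 8 each, stem and enteroendocrine cells 7 each, and 6 members were in every sheet.

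Class I molecules show peptides made inside a cell to CD8 T cells. Proteasomes cut proteins into peptides, the Tap1 and Tap2 transporter carries them into the endoplasmic reticulum, and tapasin, the product of Tapbp, helps to load them onto a heavy chain paired with beta-2-microglobulin. Interferon gamma raises most of these genes, in part through Nlrc5, and exchanges the catalytic proteasome subunits for Psmb8, Psmb9 and Psmb10. The ileal epithelium lies beside a dense population of intraepithelial lymphocytes, many of which are CD8 T cells, and H2-T23 encodes the non-classical molecule Qa-1, a ligand of the NKG2A receptor on such cells.

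Epithelial cells of the distal ileum were sorted by flow cytometry and profiled with inDrops, a droplet method that tags RNA molecules at the poly-A tail. The control sample was labelled Nav1.8Cre-/-DTA+/- and the nociceptor-ablated sample Nav1.8Cre+/-DTA+/-, so both carried the diphtheria toxin A allele and differed in the Cre driver of Nav1.8 neurons. Mice were littermate males of 8 weeks at baseline, and each genotype was 1 pool of 3 mice, so no value below has a replicate or a test of genotype. The deposited sheets compare a first with a second group of cells without naming the genotypes, so here the groups are called group 1 and group 2 and no direction of nociceptor loss is given. The library sheet lists 10000 cells and 51.4% of the sequencing pool for the control, and 8500 cells and 38.6% for the ablated sample.

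Every sheet gives, for each gene, the log2 fold change of its mean (group 1 over group 2) and the share of cells of each group in which a gene was detected. A gene had a row where it was detected in about 10.0% or more of one group. A weakly detected member could thus enter a sheet through the group in which it was higher. Cell numbers and depth per sheet are not stated in the sources used here, so shares carry no interval. Detection shares took on 19 different values in group 1 and 8 in group 2 of the tuft sheet, and 35 and 41 in the enteroendocrine sheet, so both are coarse. Tuft shares rose in steps of 5.6% in group 1 and 14.3% in group 2, so a single cell may make up a step. The tuft groups were thus very small and the enteroendocrine groups small, and their values rest on few cells. Genes detected in a smaller share of group 1 made up 91.8% of stem cell genes, 72.3% in enterocytes, 71.4% in goblet cells, 68.6% in tuft cells and 67.4% in enteroendocrine cells, and the sheets' medians of log2 fold change over all genes lay between -0.11 and -0.03. Markers of lymphocytes, myeloid cells, stroma and endothelium (42 genes) had no row in enterocytes and goblet cells and 1 row in each other sheet. In the authors' deposited table these were Cd14 in stem cells (6.6% and 12.2% of groups 1 and 2), Pecam1 in enteroendocrine cells (5.9% and 12.5%) and Ptprc in tuft cells (16.7% and 0%). Their part in the class I values was not tested. Each sheet held markers of its own label: 12 of 14 for enterocytes, all 12 for stem cells, 11 of 12 for goblet cells, 14 of 15 for enteroendocrine cells and 12 of 13 for tuft cells. The sheets also held markers of other labels: enterocyte markers had 13 of 14 rows in tuft cells, 11 in goblet cells and 10 in stem and in enteroendocrine cells, and Fabp6 was detected in 99.5% or more of every group in the authors' deposited table.

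In the genome, 8 of the 10 members lie on chromosome 17, within 2.11 Mb, in the major histocompatibility complex (GRCm38, called mm10 in the submitters' notes; RefSeq annotation, all protein-coding). Tapbp (33919478 to 33929290) and H2-K1 (33996012 to 34000619) come first. Psmb9 (34182030 to 34187330), Tap1 (34187556 to 34197225), Psmb8 (34198195 to 34201454) and Tap2 (34204479 to 34216321) follow as a block of 34.3 kb, in which Psmb9 and Tap1 are only 225 bases apart. H2-D1 (35263094 to 35267497) and H2-T23 (36029977 to 36032701) lie further along. B2m is on chromosome 2 (122147687 to 122153082) and Nlrc5 on chromosome 8 (94434335 to 94527272). The heavy chain genes are close paralogs, and the sources used here do not say how reads shared between them were counted, so values of single heavy chains are uncertain in that respect.

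The heavy chains H2-K1 and H2-D1 were found in 50.0% or more of both groups in every cell type. For H2-K1, the classical K chain, detection in the authors' deposited table was 85.2% and 80.9% in enterocytes (groups 1 and 2), 74.4% and 85.5% in stem cells, 84.1% and 85.7% in goblet cells, 55.6% and 85.7% in tuft cells, and lastly 61.8% and 70.0% in enteroendocrine cells. The ranges of the 4 types other than enteroendocrine cells overlapped, and the enteroendocrine range overlapped with that of tuft cells alone. The classical D chain, H2-D1, was detected in 69.5% and 70.7% of enterocytes, 63.5% and 76.4% of stem cells, 67.7% and 77.9% of goblet cells, 72.2% and 71.4% of tuft cells and 50.0% and 60.0% of enteroendocrine cells in the authors' deposited table. Both enteroendocrine groups lay below every other value of H2-D1. Both tuft values lay above both enterocyte values, but by less than a single step of the tuft shares. The ranges of goblet and stem cells overlapped with those of tuft cells and enterocytes.

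B2m, the light chain shared by all class I molecules, was low in enteroendocrine cells. Its detection in the authors' deposited table was 62.9% and 58.9% in enterocytes, 66.2% and 81.9% in stem cells, 62.6% and 61.6% in goblet cells, 50.0% and 71.4% in tuft cells, and lastly 20.6% and 30.0% in enteroendocrine cells. Mean detection of B2m was 0.38 times that of H2-K1 in enteroendocrine cells, against 0.73 times in enterocytes and in goblet cells, 0.86 times in tuft cells and 0.93 times in stem cells. (Poly-A tagging yields 1 tag per molecule, so shares were not divided by transcript length.) Set against the 2478 genes listed in all sheets, the mean detection of B2m stood at percentile 60.5 in enteroendocrine cells and between 89.1 and 92.8 in the other types. H2-K1 stood between percentiles 92.1 and 97.7 and H2-D1 between 86.8 and 95.5 in all 5 sheets. The enteroendocrine sheet thus had the widest gap in rank between the light chain and the heavy chains, in a comparison without replicates.

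The immunoproteasome genes were detected most often in stem cells. Psmb9, the inducible beta1 subunit, was found in 42.4% and 49.5% of stem cells, 21.9% and 26.4% of enterocytes, 22.6% and 21.8% of goblet cells, 11.1% and 0% of tuft cells and 8.8% and 20% of enteroendocrine cells in the authors' deposited table. Psmb8, the inducible beta5 subunit, had 30.6% and 44.8% in stem cells, 21.1% and 27.4% in enterocytes, 22.1% and 28.6% in goblet cells, 11.1% and 14.3% in tuft cells, and lastly 14.7% and 25% in enteroendocrine cells in the authors' deposited table. For both genes the stem cell values lay above all values of the other types. Among genes listed in all sheets, Psmb9 was also highest in stem cells (percentile 68.7, against 57.5 in enterocytes and 40.3 in goblet cells). Psmb8 was not set apart on that scale (percentile 58.6 in stem cells and 57.8 in enterocytes).

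Loading genes were detected less often than the classical heavy chains. Tapbp had 35.4% and 33.2% in enterocytes, 30.8% and 38.5% in stem cells, 28.7% and 36.7% in goblet cells, 16.7% and 28.6% in tuft cells, and lastly 17.6% and 22.5% in enteroendocrine cells in the authors' deposited table. In the authors' deposited table Tap1 was found in 16.0% and 18.0% of enterocytes, 15.4% and 12.2% of stem cells, 12.3% and 11.9% of goblet cells and 0% and 14.3% of tuft cells. Its partner Tap2 had 10.4% and 9.8% in enterocytes, 2.9% and 12.5% in enteroendocrine cells and 11.1% and 0% in tuft cells in the authors' deposited table. H2-T23 appeared in goblet cells (9.7% and 19%) and tuft cells (0% and 14.3%) in the authors' deposited table. Both transporter genes and H2-T23 thus lay close to the limit of the sheets, and the remaining combinations of these 3 genes and a cell type are not analysed here.

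**Figure D1:**
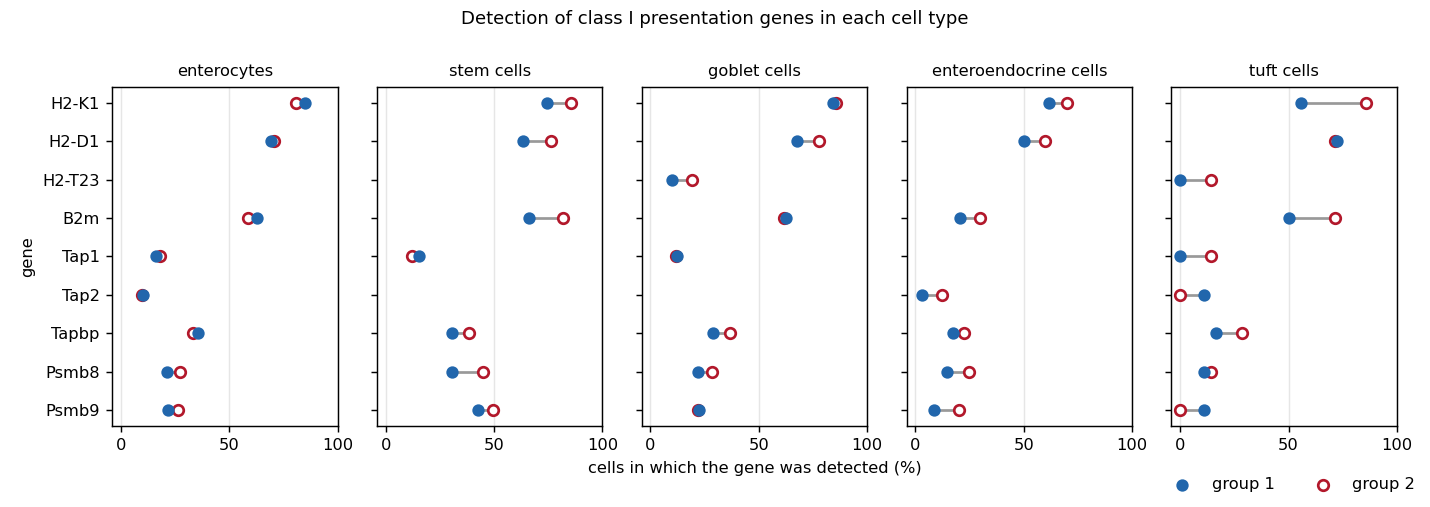
Share of cells (percent, horizontal axis) in which each class I presentation gene (vertical axis) was detected, with a panel for each cell type sheet. Filled points are group 1 and open points group 2, without replicates; the classical heavy chains lie at 50.0% or above everywhere, B2m is lowest in enteroendocrine cells (20.6% and 30.0%), and Psmb8 and Psmb9 are highest in stem cells.

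Between the groups, most members had a lower mean in group 1, as did most genes. Of 39 pairs of a member and a sheet, 4 were listed at 0 in one group, all in tuft cells, and are given by detection alone. In the other 35 pairs the log2 fold change was below 0 in 30 and above 0 in 5. The 5 were H2-D1 in tuft cells, Tap1 in stem and goblet cells, and Tap2 and Tapbp in enterocytes, none of them above 0.05. Psmb8, H2-K1 and B2m were below 0 in all 5 sheets, but how many of all genes were so was not counted. Some of these values were near 0: B2m was at -0.01 in goblet cells and H2-K1 at -0.03 in enterocytes in the authors' deposited table. The latter equalled the median of all genes of its sheet. Below 0 were 6 of 8 members in enterocytes (78.6% of all genes), 6 of 7 in stem cells (91.8%), 7 of 8 in goblet cells (72.7%), 6 of 9 in tuft cells (68.7%), with 2 of those 6 listed at 0 in group 1, and 7 of 7 in enteroendocrine cells (64.6%). H2-T23 in goblet cells, Psmb9 and Tap2 in enteroendocrine cells, and Tap2 in enterocytes (10.4% and 9.8%) had a row only through the group in which they were detected more often. Their signs were set by the listing and are no support for these counts. A log2 fold change of 0.25 in either direction was taken as the size that counts, since no test was possible. No member reached 0.25 on the higher side, and 0.0185% of all genes did in stem cells, 0.204% in enterocytes, 0.617% in goblet cells, 6.59% in tuft cells and 2.23% in enteroendocrine cells.

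H2-D1 and B2m had their lowest values in stem cells, and H2-K1 was lower only in the tuft sheet. The authors' deposited table gave H2-D1 -0.34 (63.5% and 76.4%), H2-K1 -0.26 (74.4% and 85.5%) and B2m -0.25 (66.2% and 81.9%; -0.254 before rounding). All 3 of these subunits of the class I molecule were also detected in a smaller share of group 1, as were 91.8% of all genes. They were the 3 members of 7 at or under -0.25 in that sheet, where 4.39% of all genes were. Such values were more frequent among widely detected genes: of the 582 stem cell genes found in 50% or more of both groups, 27.1% were at or under -0.25, with a median of -0.18. Next came Psmb8 at -0.21, Psmb9 at -0.15 and Tapbp at -0.12 in the authors' deposited table. Mean and detection pointed in opposite directions for 4.48% of all genes and for no member. The median of the 7 members was -0.21, beside -0.07 for all genes of the sheet. Measured from that median of all genes, only H2-D1 stayed past the fold, at -0.27. Of 8 listed goblet markers (of 12), 7 were detected less often in group 1, beside 91.8% of all genes. Their summed shares were 346.1% and 427.7%, and none was listed at 0. Muc2 had 27.7% and 41.3% and Spink4 52.8% and 69.7% in the authors' deposited table. All 12 stem cell markers were also detected less often in group 1 (summed shares of 246.0% and 321.4%), so both counts lay near the share over all genes. Ascl2 (6.1% and 11.4%) and Axin2 (9.5% and 12.6%) had a row only through group 2 in the authors' deposited table. The part of both marker lists in the class I values was not tested.

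Tap1 was the exception among the stem cell values. It was at 0.05 with detection of 15.4% and 12.2% in the authors' deposited table, and 98.5% of all genes in the sheet had a lower log2 fold change. Psmb9, which lies 225 bases from Tap1, was at -0.15 in the same cells in the authors' deposited table, and Psmb8, on the other side of Tap1, was at -0.21. In goblet cells Tap1 (0.00) and Psmb9 (-0.02) were near 0 while Psmb8 was at -0.15, and in enterocytes Tap1 (-0.04) lay between 0 and the values of Psmb9 (-0.13) and Psmb8 (-0.15) in the authors' deposited table.

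In enterocytes the heavy chains differed from each other. The authors' deposited table gave H2-D1 -0.20 and H2-K1 -0.03, and 2.9% and 53.2% of the 3426 genes in the sheet lay lower. H2-K1 was detected in more cells of group 1 (85.2% against 80.9%) although its mean was not higher, and B2m had the same combination (62.9% against 58.9%, log2 fold change -0.10) in the authors' deposited table. Opposite directions of mean and detection occurred in 2 of 8 members and in 7.88% of all genes. The class II genes H2-Aa (71.3% and 67.2%, -0.04) and H2-Ab1 (84.4% and 79.4%, -0.03) had them too in the authors' deposited table. Psmb8 and Psmb9 were at -0.15 and -0.13, Tap2 was at 0.01 and Tapbp at 0.02 in the authors' deposited table. No member was at or under -0.25, where 1.55% of all genes were and 8.65% of the 289 found in 50% or more of both groups, and the median of the 8 members was -0.07 beside -0.03 for all genes. Goblet markers were detected less often in group 1 for 7 of 8 listed (summed shares of 387.9% and 443.3%), beside 72.3% of all genes. Their part in these values was not tested.

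Goblet cells had both heavy chains low and the light chain level. H2-D1 was at -0.25 (-0.246 before rounding, so just short of the fold) in the authors' deposited table, H2-K1 at -0.22 and H2-T23 at -0.17, while B2m was at -0.01. H2-D1 was detected in 67.7% and 77.9% of cells, B2m in 62.6% and 61.6%, in the authors' deposited table. H2-T23 had a row only through its 19% in group 2. Tapbp was at -0.13 and Psmb8 at -0.15 in the authors' deposited table. None of the 8 members reached -0.25, which 2.76% of all genes did, and 13.0% of the 407 genes found in 50% or more of both groups. The member median was -0.14 beside -0.04 for all genes. B2m and Psmb9 had mean and detection in opposite directions, as did 9.68% of all genes. All 11 listed enterocyte markers were above 0 in this sheet (summed shares of 585.2% and 565.3%), where 72.7% of all genes were below 0. Apoa1 was at 1.29 and Fabp6 at 0.79 in the authors' deposited table. Of 7 listed Paneth markers 5 were above 0, and Lyz1 was at 0.91 and Mmp7 at -0.43 in the authors' deposited table. The part of these markers in the class I values was not tested.

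Enteroendocrine and tuft values were coarse. In enteroendocrine cells all 7 members were below 0 and detected in a smaller share of group 1, beside 64.6% and 67.4% of all genes. Psmb9 was lowest at -0.26 (8.8% and 20%), followed by H2-K1 at -0.16, Psmb8 at -0.15, H2-D1 and Tap2 at -0.13, Tapbp at -0.08 and B2m at -0.06 in the authors' deposited table. Psmb9 was the only member of 7 at or under -0.25, where 6.47% of all genes were and 16.7% of the 245 found in 50% or more of both groups; its value before rounding was -0.257. Both Psmb9 and Tap2 (2.9% and 12.5%) had a row only through group 2, so their sign was set by the listing and is no support for the count of 7. No member had mean and detection in opposite directions, which 11.5% of all genes had. All 10 listed enterocyte markers were below 0 in this sheet too, with a median of -0.36 and summed shares of 497.2% and 587.5%. Among the sheet's own markers, Chga was at -1.22, Tph1 at -1.27 and Pyy at 1.62 in the authors' deposited table, and the part of either list in the class I values was not tested. For tuft cells the authors' deposited table gave H2-K1 -0.36 (55.6% and 85.7%) and H2-D1 0.04 (72.2% and 71.4%). That gap between the heavy chains was the reverse in order of the one in enterocytes, and it rested on few cells. B2m was at -0.04 (50.0% and 71.4%), Tapbp at -0.14 and Psmb8 at -0.21 in the authors' deposited table. H2-K1 was 1 of 9 tuft members at or under -0.25, and 22.4% of all genes were, with 54.7% of the 267 found in 50% or more of both groups. Opposite directions of mean and detection, which 6.52% of all genes had, occurred in no member. Tap1 and H2-T23 were listed at 0 in group 1, and Tap2 and Psmb9 at 0 in group 2.

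**Figure D2:**
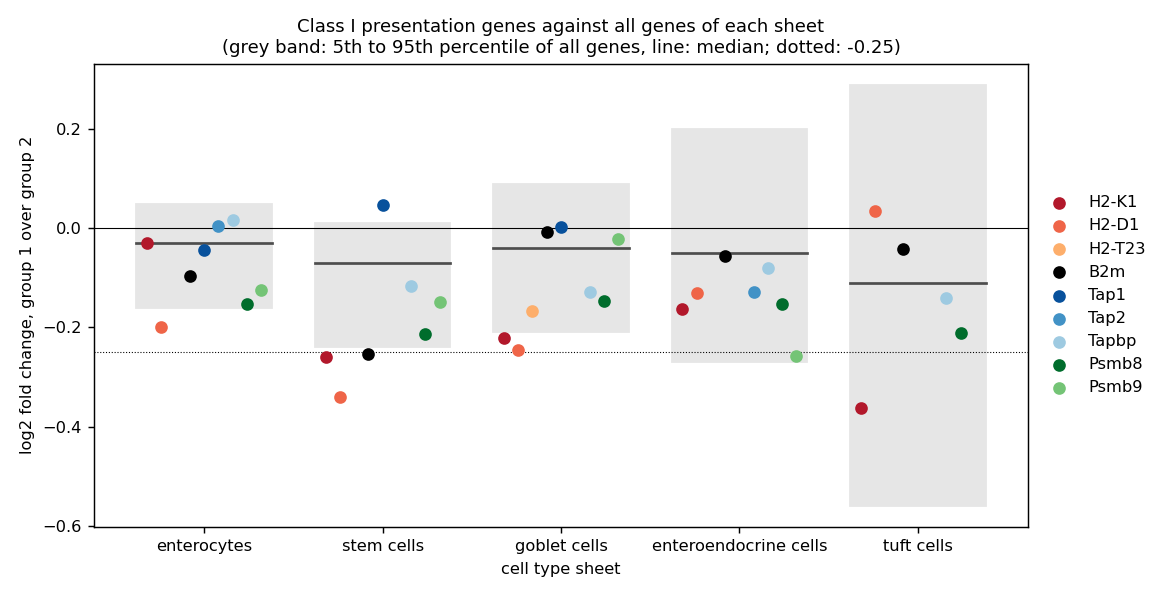
Log2 fold change of mean expression, group 1 over group 2 (vertical axis), for each member (colour) in each cell type sheet (horizontal axis), without replicates and without members listed at 0 in one group. Grey bands span the 5th to the 95th percentile of all genes of the sheet and the dark lines their medians; H2-D1 at -0.34, H2-K1 at -0.26 and B2m at -0.25 are the lowest members in stem cells, and Tap1 lies above the band there.

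Each inducible proteasome subunit was next set beside the constitutive subunit that it replaces. Differences in Psmb8 were close to those in Psmb5, the constitutive beta5 subunit. The authors' deposited table gave them -0.15 and -0.11 in enterocytes, -0.21 and -0.26 in stem cells, -0.15 and -0.14 in goblet cells, -0.21 and -0.31 in tuft cells, and lastly -0.15 and -0.06 in enteroendocrine cells. The gap between both was at most 0.10 in all 5 sheets and had no common sign. Psmb9 was above its counterpart Psmb6 in enterocytes (-0.13 and -0.19), stem cells (-0.15 and -0.26) and goblet cells (-0.02 and -0.22), and below it in enteroendocrine cells (-0.26 and -0.01), in the authors' deposited table. For the beta2 site, Psmb10 and Psmb7 were at -0.20 and -0.08 in stem cells and at -0.13 and -0.04 in goblet cells in the authors' deposited table. In mean detection, Psmb8 reached 0.90 times that of Psmb5 in enterocytes, 0.59 times in stem cells, 0.57 times in goblet cells, 0.36 times in tuft cells and 0.49 times in enteroendocrine cells. Psmb9 reached 0.61 times that of Psmb6 in stem cells, 0.53 times in enterocytes, 0.39 times in goblet cells and 0.31 times in enteroendocrine cells. The beta2 site had the opposite order, with Psmb10 at 3.17 times Psmb7 in stem cells and 3.99 times in goblet cells. The higher share of stem cells with Psmb8 was therefore accompanied by a still higher share with Psmb5.

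**Figure D3:**
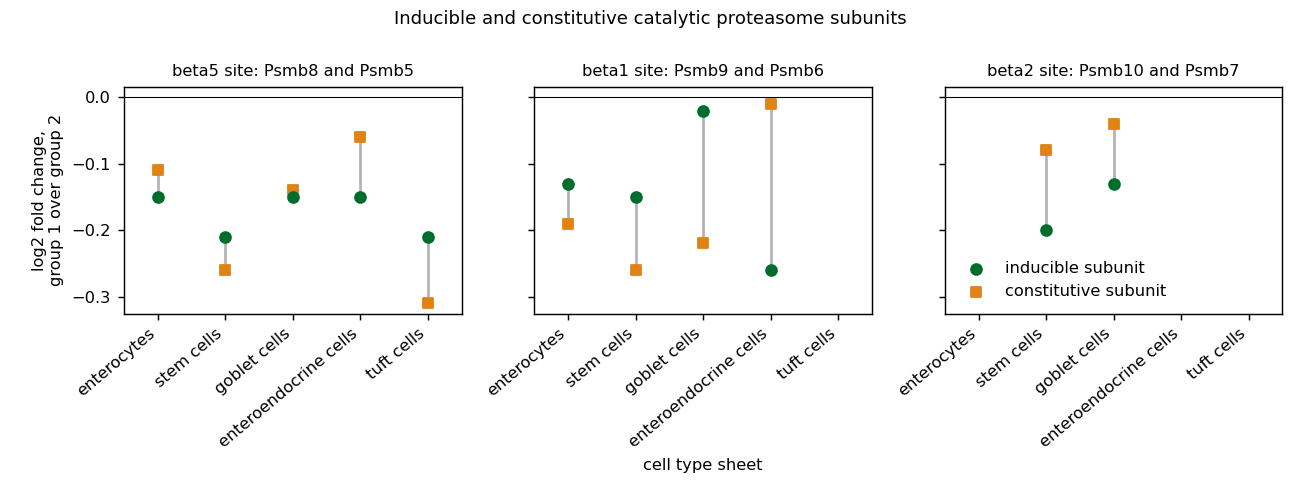
Log2 fold change, group 1 over group 2 (vertical axis), of inducible (circles) and constitutive (squares) catalytic proteasome subunits in each cell type sheet (horizontal axis), with a panel for each catalytic site and no replicates. Psmb8 and Psmb5 lie at most 0.10 apart in every sheet, and pairs with a subunit listed at 0 in one group or without a row are left out.

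All 11 other subunits of the 20S core were below 0 in enterocytes (median -0.10), stem cells (-0.22) and tuft cells (-0.30, with Psma3 and Psma4 listed at 0 in group 1), and 10 of 11 in goblet cells (-0.14). Of all genes, 78.6%, 91.8%, 68.7% and 72.7% were below 0 in these sheets. In enteroendocrine cells the split was 6 and 5, where 64.6% of all genes were below 0. At or under -0.25 were 3 of 11 in stem cells, beside 4.39% of all genes and 27.1% of the widely detected ones, and Psma7 was at -0.32 and Psmb1 at -0.31 in the authors' deposited table. The tuft sheet had 8 of 11 there, Psma3 and Psma5 among them, beside 22.4% of all genes and 54.7% of the widely detected ones. Psma2 was at -0.66 in that sheet in the authors' deposited table. Psma5 in tuft cells (5.6% and 14.3%) and Psma3 in enterocytes (7.7% and 11.7%) had a row only through group 2 in the authors' deposited table. Like those of Psma3 and Psma4 in tuft cells, their signs were set by the listing and are no support for these counts. Subunits of the 19S particle, which feeds proteins into the core, had medians of -0.07 in enterocytes, -0.15 in stem cells and -0.08 in goblet cells, with all 18, all 21 and 18 of 20 listed genes below 0, beside 78.6%, 91.8% and 72.7% of all genes. In enteroendocrine cells their median was 0.04 and 10 of 19 were above 0, where 64.6% of all genes were below 0. In tuft cells it was -0.11, as for all genes, with 14 of 19 below 0, beside 68.7% of all genes. Psmd1 and Adrm1 in enterocytes and Psmd10 in goblet cells had a row only through group 2. In enteroendocrine cells Psmd5, Psmd7, Psmd9 and Psmd14 did so, and Psmd3 only through group 1. In tuft cells Psmc5, Psmd5, Psmd6, Psmd11 and Adrm1 did so, and Psmd4 only through group 1. Such rows are no support for these counts. The activator genes Psme1 and Psme2, which encode the interferon-inducible 11S cap, were at -0.16 and -0.13 in enterocytes and at -0.24 and -0.15 in stem cells in the authors' deposited table. In goblet cells they were at -0.10 and -0.02 and in enteroendocrine cells at -0.01 and -0.07 in the authors' deposited table. Psmb8 and Psmb9 were thus not lower than most other core subunits in stem cells.

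Among the genes for loading and trimming, Calr was the lowest in stem cells, enterocytes, goblet cells and tuft cells. Calr (calreticulin), Pdia3 (ERp57) and Canx (calnexin), which act on heavy chains in the endoplasmic reticulum and on many other glycoproteins, were at -0.37, -0.26 and -0.13 in stem cells in the authors' deposited table. Enterocytes had -0.28, -0.14 and -0.07, and goblet cells -0.22, -0.17 and -0.12, for the same genes in the authors' deposited table. The coarse tuft sheet had -0.63, -0.48 and -0.36 for them in the authors' deposited table. In enteroendocrine cells Calr (0.22) and Canx (0.21) were on the higher side in the authors' deposited table. Hspa5 (BiP), another chaperone of the endoplasmic reticulum, was at -0.07 in stem cells, 0.01 in enterocytes, 0.41 in tuft cells and 0.05 in goblet cells in the authors' deposited table. The list of 12 had medians of -0.06 for 6 listed genes in enterocytes, -0.06 for 10 genes in stem cells, -0.07 for 10 genes in goblet cells and -0.02 for 8 in enteroendocrine cells. The tuft median was -0.28 for 9 genes, beside -0.11 for all genes. Of these 9, 5 were at or under -0.25, beside 22.4% of all genes and 54.7% of those found in 50% or more of both groups. At or over 0.25 were 2, beside 6.59% of all genes. Among these, Thop1 (0% and 14.3%), Blmh (5.6% and 14.3%) and Npepps (22.2% and 0%) had a row only through the higher group, so their signs were set by the listing. Erap1, which trims peptides inside the endoplasmic reticulum, was at -0.06 in stem cells and -0.05 in goblet cells in the authors' deposited table.

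A further list of 23 class I chains and class I-like genes had 4 rows in enterocytes, 3 in stem cells and 2 in each other sheet. Among the enterocyte rows was Fcgrt, the neonatal Fc receptor chain, encoded outside the complex, at -0.02 in the authors' deposited table. H2-T3, the thymus leukemia antigen that binds CD8 alpha homodimers, was at -0.06 (23.7% and 26.5%) in enterocytes and -0.04 (15.9% and 19.8%) in stem cells in the authors' deposited table. H2-Q2 was at -0.05 in enterocytes and -0.02 in stem cells, H2-Q1 at -0.05 in enterocytes, and H2-T22 at -0.18 in goblet cells in the authors' deposited table.

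Genes of interferon sensing and of class I transcription lay nearer to 0 than the classical chains in stem cells. Stem cells had all 11 listed genes of 25 below 0, but 8 of them above the median of all genes. The lowest were Irf3 (-0.11) and Irf8 (-0.10), and the interferon gamma receptor chains Ifngr1 and Ifngr2 had -0.06 and -0.08, in the authors' deposited table. Irf1, a direct activator of class I genes, was at -0.04 in stem cells, 0.00 in enterocytes, 0.11 in goblet cells and -0.30 in enteroendocrine cells in the authors' deposited table. None of the listed genes in enterocytes, stem cells or goblet cells reached 0.25 in either direction.

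Of 6 listed class II presentation genes, which serve to show extracellular peptides to CD4 T cells, 4 lay lower than every class I chain in stem cells. H2-Ab1 was at -0.47, Cd74 at -0.40, H2-Aa at -0.39 and H2-Eb1 at -0.36 in the authors' deposited table, while H2-DMa was at -0.23 and H2-DMb1 at -0.09, and the median of the 6 was -0.37. In goblet cells, where H2-D1 and H2-K1 were at -0.25 and -0.22, class II genes lay between -0.07 and 0.02 in the authors' deposited table. In enterocytes they lay between -0.13 (Cd74) and -0.02 (H2-Eb1), and in enteroendocrine cells H2-Aa had -0.31 and H2-Ab1 -0.29, in the authors' deposited table. The tuft sheet had H2-Ab1 at 0.37 and Cd74 at -0.30 in the authors' deposited table. There 4 of 6 class II genes were above 0, where 68.7% of all genes were below 0. Among the 4 was H2-Aa (22.2% and 0%), which had a row only through group 1, so its sign was set by the listing. H2-Ab1 (33.3% and 42.9%) and H2-Eb1 (16.7% and 28.6%) were above 0 but detected less often in group 1 in the authors' deposited table.

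Across the 5 sheets, the genes whose log2 fold changes lay nearest to those of H2-D1 (smallest Euclidean distance over the 5 values, among 2351 genes in all sheets without predicted gene models) were Bag1 (distance 0.06), Eef1g (0.13), H3f3b (0.14), Ppp1ca (0.14) and Lsm4 (0.15). For H2-K1 they were Rpl3-ps1 (0.10), Lsr (0.10), Capzb (0.11), Eif4a3 (0.12) and Lman2 (0.12), and for B2m they were Cnpy2 (0.09), Dpyd (0.10), Nono (0.10), Rps24-ps3 (0.10) and Psme2 (0.11). Apart from Psme2, none of these is in the class I or proteasome lists, and neither H2-K1 nor B2m was among the 5 nearest to H2-D1. The 5 values were not scaled to the spread of their sheets. From 5th to 95th percentile, all genes spanned -0.56 to 0.29 in tuft cells and -0.16 to 0.05 in enterocytes. The very small tuft sheet could thus weigh most. There the heavy chains were far apart, with 0.04 for H2-D1 against -0.36 for H2-K1, per the authors' deposited table. They also differed in enterocytes (-0.20 and -0.03). Which genes lie nearest without the tuft sheet was not tested.

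The cluster marker table compares each of 8 clusters with all other cells, and 4 members had a row in it. The clusters were made from the same cells, so these values are a description. Cluster 1 held H2-K1, H2-D1 and B2m, and 2.67% of the 8992 genes with a row in any table were markers of it. H2-K1 was detected in 92.1% of its cells and 75.2% of all others (log2 fold change 0.72), H2-D1 in 76% and 58.6% (0.54) and B2m in 69.2% and 51.5% (0.55) in the authors' deposited table. By fold, H2-K1 was number 59 of the 240 markers of the cluster, B2m number 92 and H2-D1 number 94. The same cluster held H2-Q2 (35.0% and 14.1%), the class II genes H2-Aa, H2-Ab1, Cd74 and H2-Eb1, and Irf7 (33.1% and 11.4%), a transcription factor of interferon responses, in the authors' deposited table. Its markers included 12 of 14 enterocyte markers, among them Fabp2 (90.8% and 24.2%) and Alpi (51.5% and 12.8%), in the authors' deposited table.

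Psmb9 was listed for another cluster. It was detected in 36.1% of the cells of cluster 2 and 18.1% of all others (log2 fold change 0.28) in the authors' deposited table, and markers of that cluster made up 8.46% of all genes with a row. With it stood 9 of the 11 other core subunits, including Psma6 (80.0% and 34.4%) and Psma7 (78.8% and 34%), as well as Psmb5 (52.4% and 21.7%), Psmb6 (65.6% and 38.5%) and Psme1 (61.4% and 37.7%) in the authors' deposited table. In all, 15 of 43 proteasome genes were markers of cluster 2, and 1 was a marker of any other cluster. The crypt genes Olfm4 (45.4% and 8.1%), Top2a (29.7% and 3.1%) and Pcna (32.2% and 5.3%) were markers of cluster 2 in the authors' deposited table. No table ties the clusters to the cell type sheets. Thus H2-K1, H2-D1 and B2m were listed for cluster 1 and Psmb9 alone of the members for cluster 2, near the lowest listed value of 0.25. A gene without a row for a cluster can still be expressed in it. H2-T23, Tap1, Tap2, Tapbp and Psmb8 had no row in this table, whose rows start at a log2 fold change of 0.25. No member was a marker of cluster 4, with 11 of 12 goblet markers, cluster 6, with 13 of 15 enteroendocrine markers, or cluster 7, with 10 of 13 tuft markers. These clusters had 282, 311 and 215 markers among 8992 genes, so the lack of a row for 9 members there says little.

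**Figure D4:**
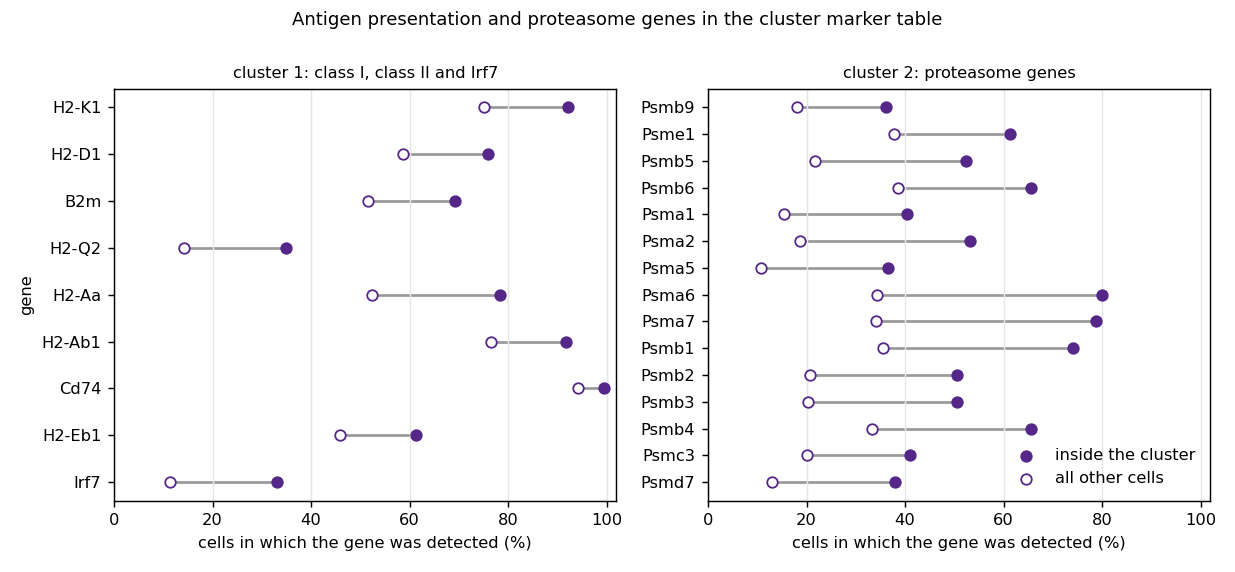
Share of cells (percent, horizontal axis) in which class I, class II and proteasome genes (vertical axis) were detected inside cluster 1 (left) or cluster 2 (right), as filled points, and in all other cells, as open points. H2-K1, H2-D1 and B2m were markers of cluster 1 with class II genes, and Psmb9 was a marker of cluster 2 with other proteasome genes.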

How the data were processed

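Per the submitters' processing notes, Cell Ranger, Seurat, DESeq2 1.30.1 and the build mm10 were used. Not given in the sources used here are the tool behind each column, cell filters, doublet handling and cell type assignment. Per the file headers, the authors deposited log2 fold changes of mean expression and detection shares (a fraction of cells, printed here as percent) for 5 cell types and for cluster markers. The offset behind the fold changes of weakly detected genes is not stated. The deposited p-values are over single cells and were not used.

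The sheets were read with Python 3.11.15 and pandas 2.3.3. Members were matched by symbol; all 10 matched the RefSeq table (GRCm38.p6), and no sequence is printed. A fold of 0.25 and its share over all genes stood in for a test, since each genotype had 1 pooled sample. Counting functions were tested on simulated data. All members were named, with the 2 highest and 2 lowest genes of each pathway list considered per cell type. Members and lists were chosen with earlier results of these data known. Alternatives were the mean, the zero point, the fold and a detection floor of 20%.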

Additional observations from a re-analysis of the deposited data

How the results depend on the processing

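No paired analysis was possible because each genotype had 1 sample and no result comes from a test, and no replicate could be left out. The member median kept its negative sign in every sheet under each alternative. For enterocytes, stem, goblet, enteroendocrine and tuft cells it was -0.07, -0.21, -0.14, -0.13 and -0.14. With the mean in its place the values were -0.08, -0.18, -0.12, -0.14 and -0.09 in that order, and less the median of all genes they were -0.04, -0.14, -0.09, -0.08 and -0.03. With members detected in at least 20% of both groups they were -0.11, -0.23, -0.14, -0.13 and -0.04, over 6, 6, 6, 3 and 3 members. Leaving out the 4 tuft members listed at 0 in one group, chosen after seeing the data, gave -0.14 again. Members at or under a log2 fold change of -0.25 numbered 0, 3, 0, 1 and 1. A fold of 0.1 gave 3, 6, 5, 5 and 5, and measuring from the median of all genes gave 0, 1, 0, 0 and 0, with H2-D1 the 1 in stem cells. The 20% floor took the enteroendocrine count from 1 to 0, since Psmb9 fails it by construction, and left the other counts as they were. Depth is unknown for every sheet, so detection near 10% (Tap1, Tap2, H2-T23) says little about presence or absence.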
